A study of Monodelphis domestica and Mus musculus with 2 samples.

Results

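L5IT cells were the layer 5 intratelencephalic neurons of mouse primary visual cortex (V1), as named by the deposited label of each cell of a Stereo-seq section. A cell was counted here if it lay in one of the V1 regions, passed the deposited filter and carried both the glutamatergic class label and the L5IT subclass label. This gave 133 cells, 2.13% (95% interval 1.79 to 2.52) of the 6245 glutamatergic cells, among 9127 V1 cells that passed the filter, 120239 segmented mouse cells and 200608 segmented cells in the mouse and opossum sections together. A further 2 cells with the L5IT subclass label had a non-neuronal class label and were left out. The members came from all 4 V1 regions of the section, with 38 in region 1, 25 in region 2, 38 in region 3 and 32 in region 4, which were 1.63, 2.26, 2.93 and 2.12% of the glutamatergic cells of those regions.

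The study compared cortical cell types of the mouse with those of the gray short-tailed opossum, and the mouse was represented by 1 male wild-type C57BL/6J animal of about postnatal day 40. In Stereo-seq, a thin slice of tissue is laid on an array of barcoded spots that bind polyadenylated RNA where it lies. Unique molecular identifiers (UMIs), each standing for 1 captured molecule, are then counted within cell outlines drawn from a stained image. The 4 V1 regions lay on 1 section of 10 µm through a block that held several slices of the same brain, so they are repeats within 1 animal and not independent samples, and no p-value was computed. The paper lists fewer mouse sections than regions, with adjacent regions taken in some sections. Not all 4 regions are therefore from separate slices. Mouse and opossum cell lists shared 0 barcodes.

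Intratelencephalic neurons send their axons to other cortical areas, to the opposite hemisphere and to the striatum, and they do not leave the telencephalon. In layer 5 they intermingle with pyramidal tract neurons (L5PT here), whose axons reach the brainstem and spinal cord, and other intratelencephalic neurons sit above them in layer 4 (L4), where input from the thalamus arrives, and below them in layer 6 (L6IT). Mouse L5IT neurons are usually recognized by genes such as Deptor, whose product binds and inhibits the growth kinase mTOR, and Hsd11b1, whose product regenerates active glucocorticoid inside cells. The comparison used 1879 L4 cells, 256 L5PT cells and 407 L6IT cells of the same regions.

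The subclass labels had been transferred from a single-nucleus atlas by nearest-neighbor classification of expression, over 3 rounds that accepted a lower share of agreeing neighbors each time. Of the L5IT cells, 29 (21.8%) were labelled in round 1, 69 (51.9%) in round 2 and 35 (26.3%) in round 3. L5PT cells took 8.98% of their members from round 3, L6IT cells 13.5% and L4 cells 21.2%, so L5IT had the largest share of late labels among these 4 subclasses. A finer type label was deposited as well, and it read L5IT for 102 of the members. It was missing for 19 of them and named another type in the rest, with 5 cells labelled as Micro, 3 as L6IT_A, 2 as L4_C, 1 as L4_B and 1 as L5PT_A. In the other direction, 17 cells outside the members carried the L5IT type label, of which 7 had no subclass label, 4 were L4, 4 were L6IT, 1 was L5PT and 1 was L6CT. Because expression set the labels, gene differences between labelled subclasses are given below as a description. Position in the tissue was not used for labelling.

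The 133 cells held 208818 UMIs, between 38270 in region 2 and 67408 in region 3. The median cell had 1553 UMIs and 981 genes, and the regional medians ran from 1373 UMIs in region 1 to 1694.5 in region 3. L4 cells were smaller by this measure with a median of 1205 UMIs, L6IT cells had 1482 and L5PT cells 1916. When every cell was thinned to 300 UMIs, which left out 1 L5IT cell, the median L5IT cell had 258 genes, beside 257 in L4, 259 in L6IT and 261 in L5PT. Genes per cell therefore ran close together once depth was equal. Levels below are UMIs per 10000 UMIs, summed over the cells of a subclass, with exact Poisson intervals at 95%. These intervals, like those for shares and folds, cover counting error only.

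L5IT cells lay where layer 5 lies. Their median depth was 426 µm below the top of the region (interval 404 to 446), with quartiles of 353 and 504 µm, on a scale stretched to the tallest region. By region the medians were 368, 438, 454 and 452 µm, so region 1 was the shallow one on this scale. Unscaled they were 368, 395, 365 and 407 µm, and region 1 did not stand out. The L4 median was 261 µm, 165 µm above that of L5IT, and the L6IT median was 555 µm, 129 µm below it. In each of the 4 regions the L5IT median fell between those of L4 and L6IT. The L5PT median was 423 µm, and here the order did not hold across regions: L5IT was 38.5 µm shallower than L5PT in region 1 and 1.79, 29.9 and 22.2 µm deeper in regions 2, 3 and 4. The plot of cell positions shows both subclasses in the same band.

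**Figure D1:**
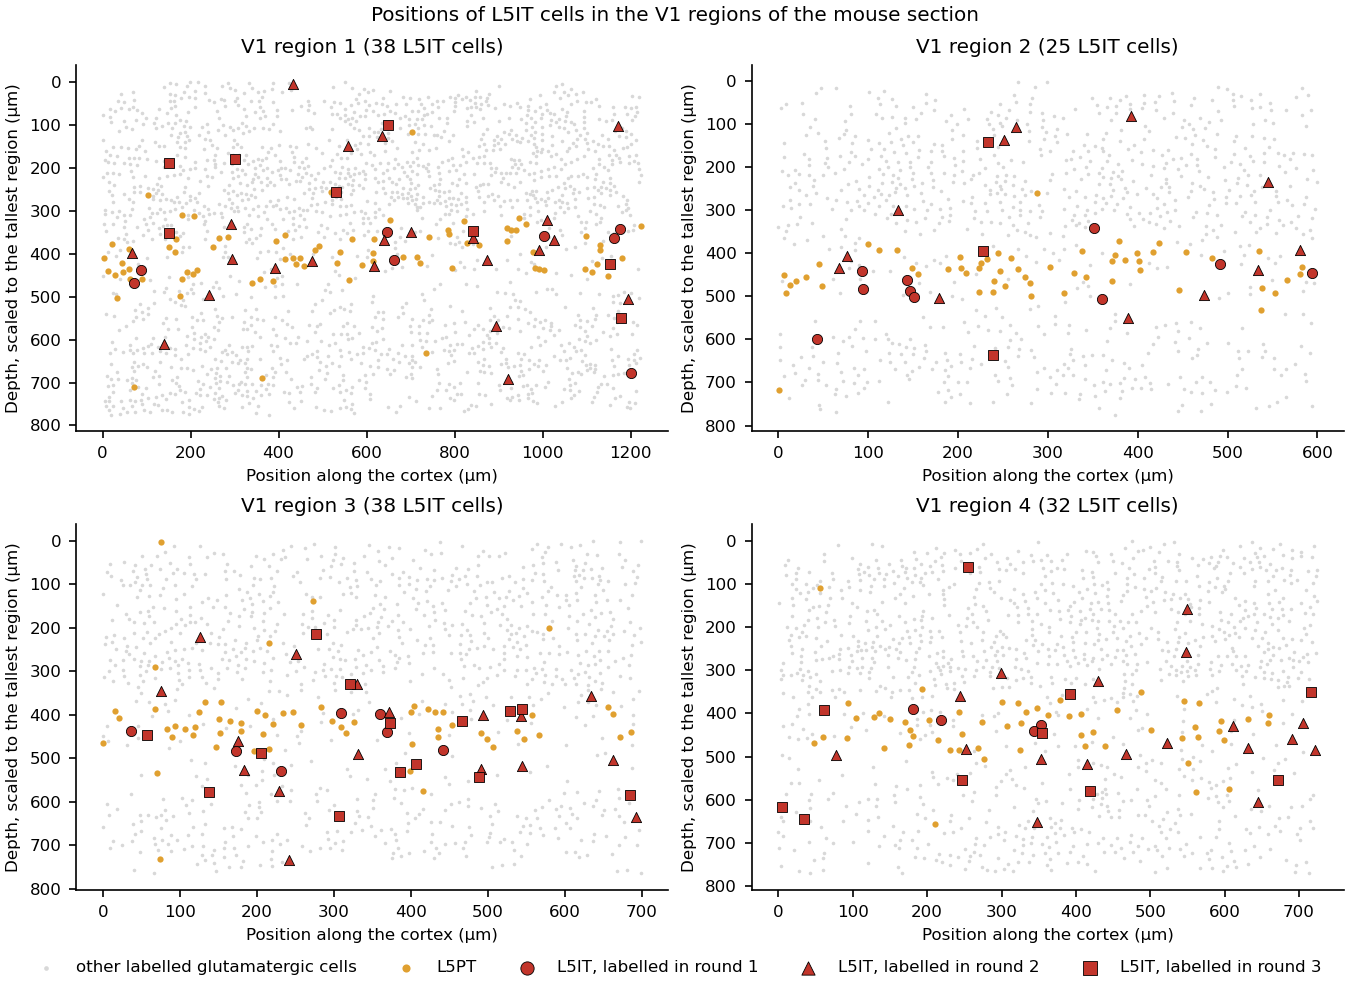
Positions of L5IT cells in the 4 V1 regions, with distance along the cortex and scaled depth in µm; grey dots are other labelled glutamatergic cells, yellow dots are L5PT cells, and the symbol of an L5IT cell gives its labelling round. Most L5IT cells share the band of L5PT cells, whose median is 423 µm, and 21 lie above 314 µm, where L4 and L2/3 cells dominate.

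L5IT and L5PT differed in spread more than in center. The interquartile range of depth was 151 µm in L5IT and 62.5 µm in L5PT, and by region it was 97.0, 155, 132 and 125 µm in L5IT against 74.1, 54.5, 52.2 and 58.6 µm in L5PT. It was wider in L5IT in every region. A band from the third quartile of L4 depth (314 µm) to the first quartile of L6CT depth (583 µm) held 99 L5IT cells, or 74.4% (66.2 to 81.6), with 27 of 38, 17 of 25, 31 of 38 and 24 of 32 cells in regions 1 to 4. The same band held 93.0% of L5PT cells and 41.0% of L6IT cells. It held 21.9% of L4 cells, a share limited in advance because the depth of L4 cells set the top of the band. Above it were 21 L5IT cells and below it 13. The 21 upper cells were poorer in RNA, with a median of 897 UMIs against 1661 in the band and 1759 below it.

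The spread went with the labelling round. Of round 1 cells, 93.1% (77.2 to 99.2) lay in the band and their interquartile range was 82.7 µm. In round 2 the share was 71.0% (58.8 to 81.3) and the range 165 µm, and in round 3 they were 65.7% (47.8 to 80.9) and 203 µm. The intervals of rounds 2 and 3 overlapped widely, and that of round 1 reached into both of them. Cells that also carried the L5IT type label lay in the band in 78.4% of cases and the other members in 61.3%, with intervals (69.2 to 86.0 and 42.2 to 78.2) that overlapped. What part mislabelled cells have in the spread was not tested.

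**Figure D2:**
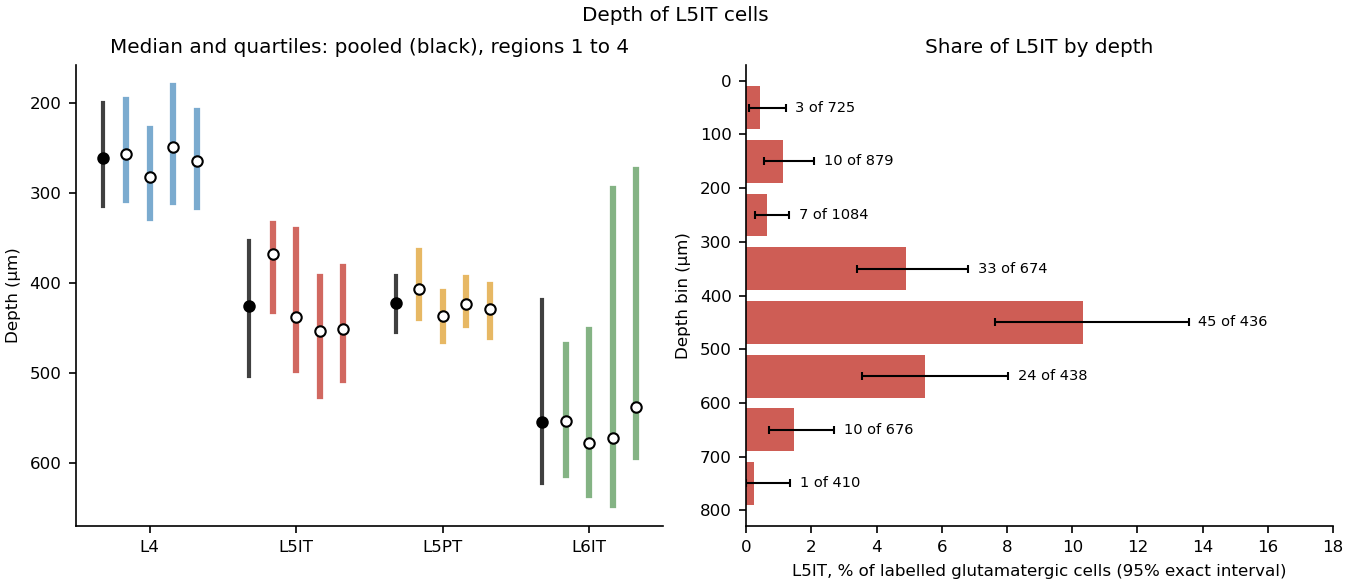
Left, median depth (circles) and quartiles (bars) in µm for 4 subclasses, pooled in black and then for regions 1 to 4. Right, L5IT cells as a percentage of all labelled glutamatergic cells in bins of 100 µm, with exact 95% intervals and cell numbers; the share peaks at 10.3% between 400 and 500 µm.

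As a share of labelled glutamatergic cells, L5IT was highest in the middle bins of depth. It was 0.414% in the top 100 µm, 1.14 and 0.646% in the next bins, 4.90% between 300 and 400 µm and 10.3% (7.63 to 13.6, 45 of 436 cells) between 400 and 500 µm. It was 5.48% from 500 to 600 µm, 1.48% from 600 to 700 µm and 0.244% below that. L5IT cells were thus a minority even at their peak. The authors did not use these sections to measure cell densities, because transcripts can go uncaptured, and the shares here describe labelled cells only.

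Among the 10 nearest labelled glutamatergic cells of an L5IT cell, 30.2% were L4, 18.05% L6CT, 16.8% L2/3, 14.5% L5PT, 9.77% L6IT and 8.65% L5IT. At the same depths in the same regions the shares would be 28.3, 16.7, 17.1, 18.4, 8.88 and 7.36%. The widest gap was that of L5PT neighbors, 14.5 against 18.4%, and the others lay closer to the shares at their depth. No test was made of these gaps. The median distance to the nearest cell of the same label was 51.6, 44.3, 30.9 and 54.2 µm in regions 1 to 4 for L5IT, and 21.8, 17.3, 16.1 and 20.6 µm for L5PT, which were more numerous and more narrowly layered.

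Levels of the usual markers in the labelled cells were mixed. Deptor (chromosome 15, 54975710 to 55122667, plus strand, GRCm39) had 36 UMIs in L5IT cells, a level of 1.72 (1.21 to 2.39), with 1.69, 1.31, 1.78 and 2.01 in regions 1 to 4. In L4 it was 0.430, in L5PT 0.386 and in L6IT 0.220, and the highest regional level in any of these was 0.783, in L5PT of region 3. All 4 L5IT regions were above all 12 regional levels of the other 3 subclasses. A Deptor UMI was found in 17.3% of L5IT cells and in 4.57% of oligodendrocytes, taken here as the background of free and neighboring RNA at a similar median count (1393 UMIs per cell against 1553). The marker list of glutamatergic neurons (Slc17a7, Camk2a and 3 others) shows how high that background was: it summed to 23.7 (21.6 to 25.8) in L5IT and to 24.3 in oligodendrocytes, so it did not separate neurons from glia here.

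Hsd11b1 (chromosome 1, 192903918 to 192946489, minus strand) showed no such difference. It had 2 UMIs in L5IT cells, 1 each in regions 3 and 4, a level of 0.0958 (0.0116 to 0.346). Its levels of 0.184 in L4, 0.183 in L5PT, 0.0630 in L6IT and 0.146 in oligodendrocytes all lay within that interval, so Hsd11b1 did not mark these cells above background at this depth. Of the other 7 genes on the L5IT marker list, Batf3, Endou and Whrn had 0 UMIs in L5IT cells, Col27a1 had 1 and Col6a1 had 5. The floor of 3 counts, set in place of 0 for folds, is a level of 0.144 in L5IT cells. Whrn, a scaffold protein known from hair cells, stood at 0.589 in L4. Tox2 had 11 UMIs (0.527, against 0.772 in L5PT), and Etv1, a transcription factor of layer 5, had 31 (1.48, against 2.21 in L5PT, 0.810 in L4 and 0.834 in L6IT). Summed over the list, the level was 4.12 (3.29 to 5.09) in L5IT and 4.08 (3.54 to 4.69) in L5PT, so it did not separate these. It was 2.60 in L4 and 2.09 in L6IT. Deptor alone held 36 of the 86 UMIs of the list in L5IT cells, so the gap from L4 and L6IT rests in large part on that gene. The name L5IT below stands for the label. Expression set that label and Deptor may have entered it, so the level of Deptor describes the labelled cells and is no separate check of their name.

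Among the genes that passed the minimum mean level of 1 given below, the one with the highest fold in each of the 3 comparisons was Il1rapl2, an X-linked member of the interleukin-1 receptor family whose close relative acts in synapse formation (chromosome X, 136471357 to 137749670, plus strand). It had 258 UMIs in L5IT cells, a level of 12.4 (10.9 to 14.0). By region the levels were 16.5, 15.9, 9.05 and 9.63. In L4 it was 0.313, in L5PT 0.244 and in L6IT 1.75, and no regional level of these 3 passed 2.09, so the groups did not overlap. The 133 cells, with 1.67% of the UMIs of V1, held 36.0% (32.5 to 39.6) of all Il1rapl2 UMIs of V1. At least 1 Il1rapl2 UMI was found in 63.9% of L5IT cells, 15.2% of L6IT cells, 4.30% of L5PT cells, 2.87% of L4 cells and 3.74% of oligodendrocytes. The labels were made from expression and Il1rapl2 may have entered them, so this is a description of the labelled cells.

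**Figure D3:**
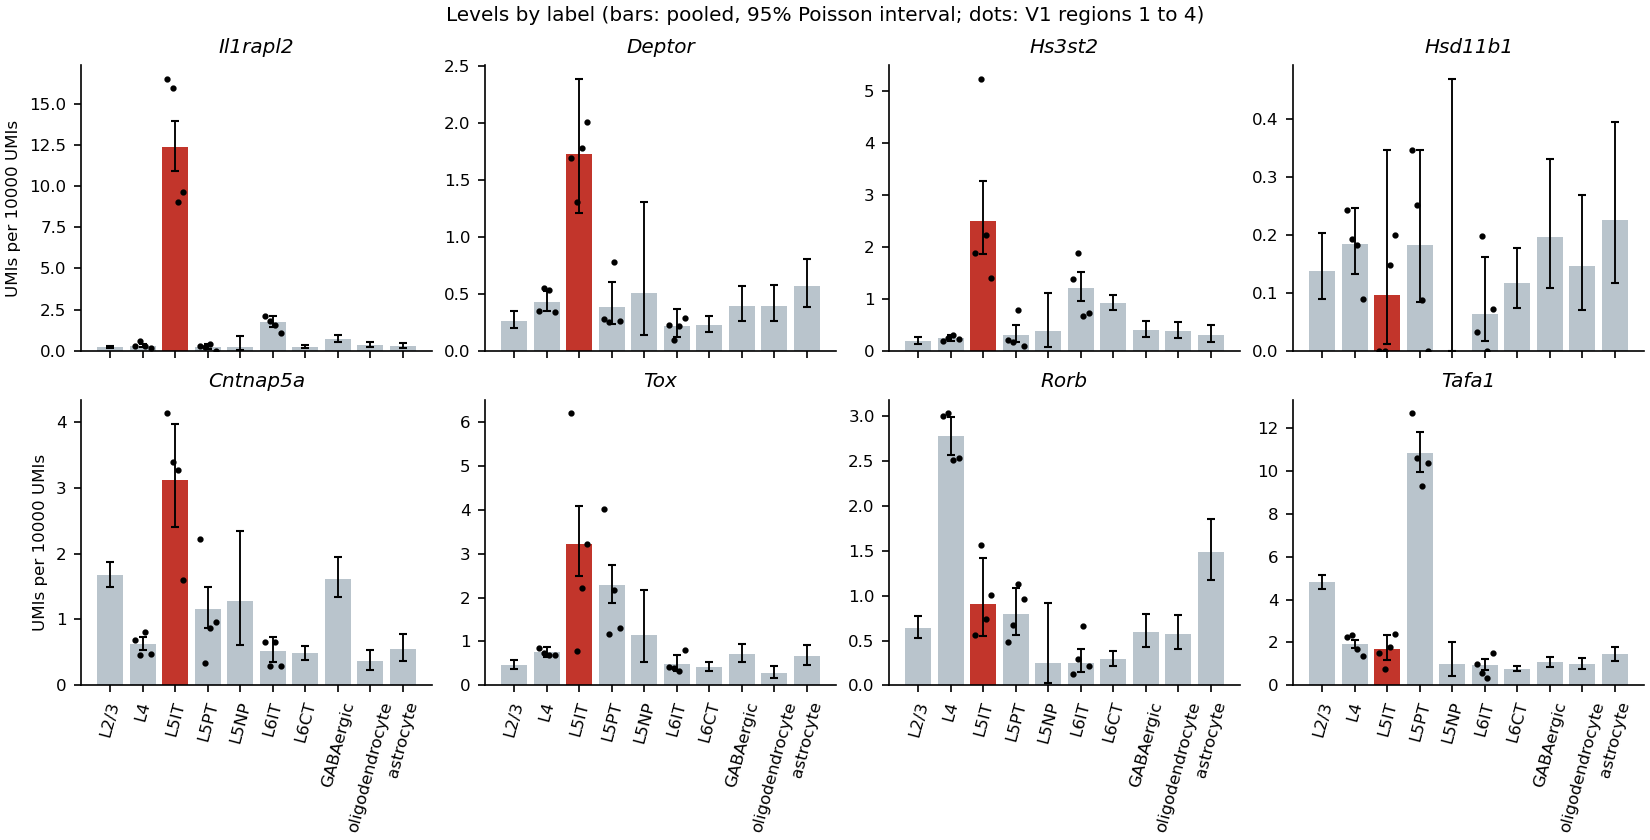
Levels of 8 genes in UMIs per 10000 UMIs, for each subclass or cell type of V1; bars are pooled levels with 95% Poisson intervals, dots are the 4 V1 regions for L4, L5IT, L5PT and L6IT, and L5IT is red. Il1rapl2, Hs3st2 and Cntnap5a stand highest in L5IT, Hsd11b1 does not, Rorb is highest in L4 and Tafa1 in L5PT.

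Il1rapl2 was high in every labelling round and at every depth. Its level was 16.5 (13.1 to 20.3) in round 1, 12.0 in round 2 and 8.85 (6.40 to 11.9) in round 3, and a UMI was found in 62.1, 58.0 and 77.1% of the cells of these rounds. Above the middle band the level was 8.48 (4.94 to 13.6), in the band 12.5 and below it 14.6 (9.92 to 20.7). In all other V1 cells it was 0.325, 0.444 and 0.358 at those depths, and in the 588 cells of the band without a subclass label it was 0.240. The level thus fell with the round, while the share of cells with a UMI did not. Round 3 cells and the upper cells stood far above the rest of V1. Expression set the labels and Il1rapl2 was picked for its fold in these same cells, so this is no check of their label. Deptor was lower in later rounds, at 2.71 in round 1, 1.57 in round 2 and 1.03 (0.334 to 2.40) in round 3, on 14, 17 and 5 UMIs.

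**Figure D4:**
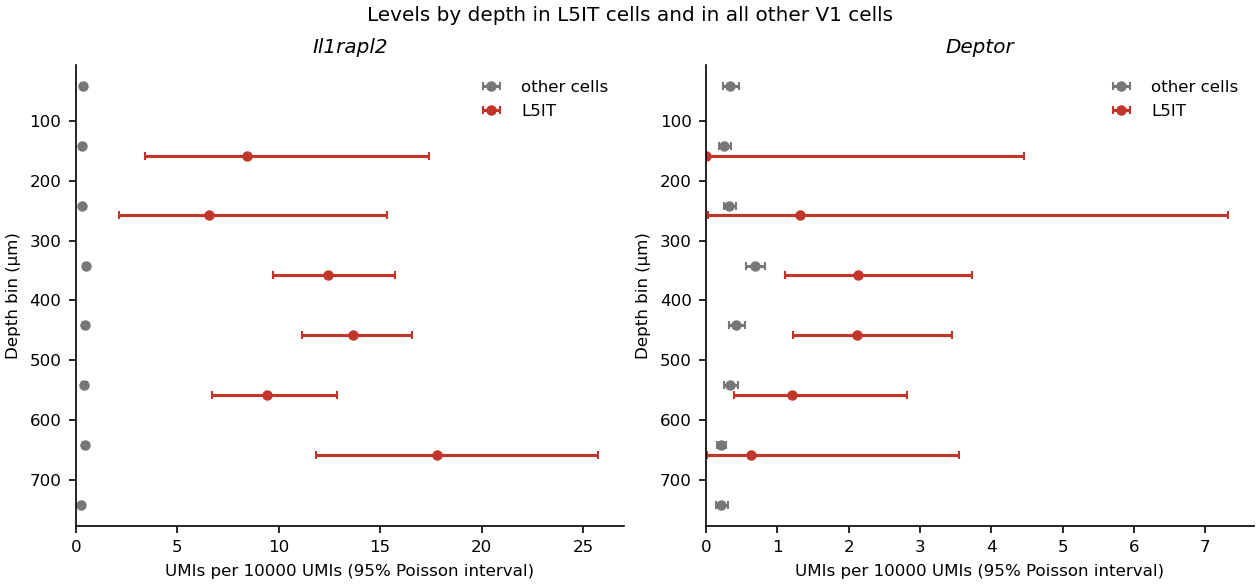
Levels of Il1rapl2 and Deptor in bins of 100 µm of depth, in L5IT cells (red) and in all other V1 cells (grey), as UMIs per 10000 UMIs with 95% Poisson intervals; bins with fewer than 5 cells are not drawn. Il1rapl2 in L5IT cells lies above the other cells in each bin drawn, and Deptor in the other cells is highest, at 0.690, between 300 and 400 µm.

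Deptor also had a depth profile outside the labelled cells. In V1 cells other than L5IT its level was 0.690 (0.566 to 0.833) between 300 and 400 µm and 0.422 between 400 and 500 µm, against 0.256 to 0.338 above 300 µm and 0.205 to 0.339 below 500 µm. L5IT cells of those middle bins were at 2.13 and 2.12.

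Hs3st2, a heparan sulfate 3-O-sulfotransferase, had a level of 2.49 (1.86 to 3.27), with 1.88, 5.23, 2.23 and 1.40 by region. Cntnap5a, a neurexin-like adhesion protein, had 3.11 (2.40 to 3.97), with 4.13, 3.40, 3.26 and 1.61. Tox, a nuclear protein with an HMG box, had 3.21 (2.49 to 4.07), with 6.19, 0.784, 2.23 and 3.21. Region 2 of L5IT was thus level with L4 for Tox, where the regions lay between 0.682 and 0.841. Esrrg, an orphan nuclear receptor, had 1.77 (1.25 to 2.44), with 2.81, 1.31, 1.78 and 1.00. Ptprm, a receptor tyrosine phosphatase that also binds cells to each other, had 2.11 (1.53 to 2.83), with 4.32 and 2.35 in regions 1 and 2 and 1.04 and 1.00 in regions 3 and 4. Olfm3, a secreted glycoprotein, had 1.58 (1.09 to 2.22) and was carried by region 2, at 3.66, beside 0.938, 1.48 and 0.803. Il1rapl2, Hs3st2, Cntnap5a, Tox and Esrrg were chosen for their folds over L4 in these same cells, so that L5IT stands apart in their joint detection follows from the choice, also beside the marker list. At least 1 UMI of any of them was found in 90.2% of L5IT cells, 44.9% of L5PT cells, 34.9% of L6IT cells, 19.4% of L4 cells and 18.5% of oligodendrocytes. The same share was 93.1, 89.9 and 88.6% in rounds 1 to 3. For the listed L5IT markers it was 39.8% in L5IT, 44.9% in L5PT and 22.5% in oligodendrocytes, and was 20 of 29 cells in round 1, 26 of 69 in round 2 and 7 of 35 in round 3.

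Across genes, all comparisons use the same L5IT cells and are therefore not independent of each other. A gene was tested if its mean level over both subclasses was at least 1, and it is called here if the pooled fold passed 2 and the regional levels lay on the same side in all 4 regions. With 37 UMIs the median tested gene was thinly covered in L5IT cells, and many calls did not hold at lower depth: with cells thinned to 300 UMIs, 10 of 25 genes higher and 12 of 20 lower than in L4 were called again, 8 of 28 and 7 of 24 for L5PT, and 5 of 21 and 5 of 15 for L6IT. Among cells within the depth quartiles of L5IT the same numbers were 10 and 6, 16 and 14, and 7 and 1. Under thinning, 43 of 45, 50 of 52 and 35 of 36 called genes kept their direction, and 37, 36 and 25 stayed past 2-fold. Within the quartiles, 45, 52 and 34 kept it, and 27, 38 and 25 stayed past 2-fold. Over 2284 genes with both sides at equal depth, levels in L5IT ranked most like those in L6IT (Spearman's rho 0.829), followed by L4 (0.821), L2/3 (0.812), L5PT (0.808) and L6CT (0.803), as a description across genes that share a section.

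Against L4, 25 of 2309 tested genes were called higher in L5IT, which is 1.08% of those tested, and 20 were called lower, 0.866%. The median log2 fold over all tested genes was 0.04. Il1rapl2 led with 39.5-fold (30.4 to 51.7), and Hs3st2 followed with 10.5-fold (7.05 to 15.5). Cntnap5a was 4.94-fold, Tox 4.27-fold, Esrrg 4.20-fold and Deptor 4.01-fold (2.66 to 5.91) higher. Ptprm was 3.24-fold (2.26 to 4.55) and Olfm3 3.03-fold (2.00 to 4.48) higher.

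Further genes called higher than in L4 included Pde1a, Pcp4, Kcnq5, Mtor and Tmx1. Pde1a, a phosphodiesterase switched on by calcium and calmodulin, stood at 6.00, 4.96, 5.64 and 6.62 in regions 1 to 4 of L5IT and between 1.70 and 2.28 in those of L4, a 2.74-fold difference (2.23 to 3.34). Pcp4, a small calmodulin-binding protein, was 5.36 in L5IT and 2.44 in L4, 2.20-fold, and its reads overlap those of a same-strand transcript, Gm49948. Pcp4 was at 5.20 in L5PT and 4.75 in L6IT, so it did not set L5IT apart from these. Kcnq5, a subunit of the M-type potassium channel, was 8.86 in L5IT and 4.15 in L4, 2.14-fold (1.82 to 2.50). Mtor, the kinase that Deptor binds, was 1.68 (1.17 to 2.33) in L5IT and 0.614 in L4, 2.73-fold (1.83 to 3.97). Tmx1, a thioredoxin-related protein of the endoplasmic reticulum, was 2.90-fold higher.

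Genes lower in L5IT than in L4 included the layer 4 regulator Rorb, with 0.563, 1.57, 0.742 and 1.00 in the L5IT regions and 2.51 to 3.03 in the L4 regions, 3.05-fold lower (1.94 to 5.10). Kctd16, an auxiliary subunit of GABA-B receptors, was 4.39-fold lower (2.69 to 7.72), Pcdh15, a protocadherin, 3.77-fold lower (2.50 to 5.97) and Pdzrn3, a ubiquitin ligase with PDZ domains, 3.74-fold lower. Kcnb2, a delayed rectifier potassium channel, was 3.57-fold lower, Brinp3 3.21-fold, the calcium channel subunit Cacna2d3 2.84-fold (1.97 to 4.27) and the heparan sulfate 6-O-sulfotransferase Hs6st3 2.71-fold lower. The netrin receptor gene Dcc and its relative Unc5d were 2.38-fold and 2.40-fold lower, the growth factor gene Nrg1 2.03-fold, Camk4 2.31-fold, Nol4 2.45-fold and the cyclic GMP-dependent kinase Prkg1 2.48-fold.

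The immediate early gene Fos, which neurons switch on with activity, was 1.72 in L5IT and 4.51 in L4. By region it was 1.31, 2.09, 1.78 and 1.81 in L5IT and 3.70 to 5.02 in L4, 2.62-fold lower (1.88 to 3.76), and no region of one overlapped the other. Fos was 2.70 in L5PT and 3.10 in L6IT, and the difference from these did not pass 2-fold. Fos was 2.78 in oligodendrocytes, above its level in L5IT. Of 12 immediate early genes tested against L4, 0 were called higher and 1 lower, beside 1.08 and 0.866% of all tested genes. Their median log2 fold was -0.37 beside 0.04 over all genes. Egr1 was at 11.3 in L5IT and 14.8 in L4, and Nr4a1 at 7.14 and 9.54. Of 9 tested against L5PT and 10 against L6IT, 0 were called, with medians of 0.33 and -0.02. Over all tested genes, 1.21% were called higher and 1.03% lower against L5PT, and 0.911 and 0.65% against L6IT.

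Without region 3 the counts against L4 were 53 higher and 34 lower, and without region 4 they were 38 and 35. Without region 1, 32 genes were called lower. Leaving out a region changes the pooled levels and also leaves only 3 regions that must lie on the same side. Of the 25 genes higher and 20 lower over all regions, 18 to 24 and 15 to 17 were called again when 1 region was left out.

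**Figure D5:**
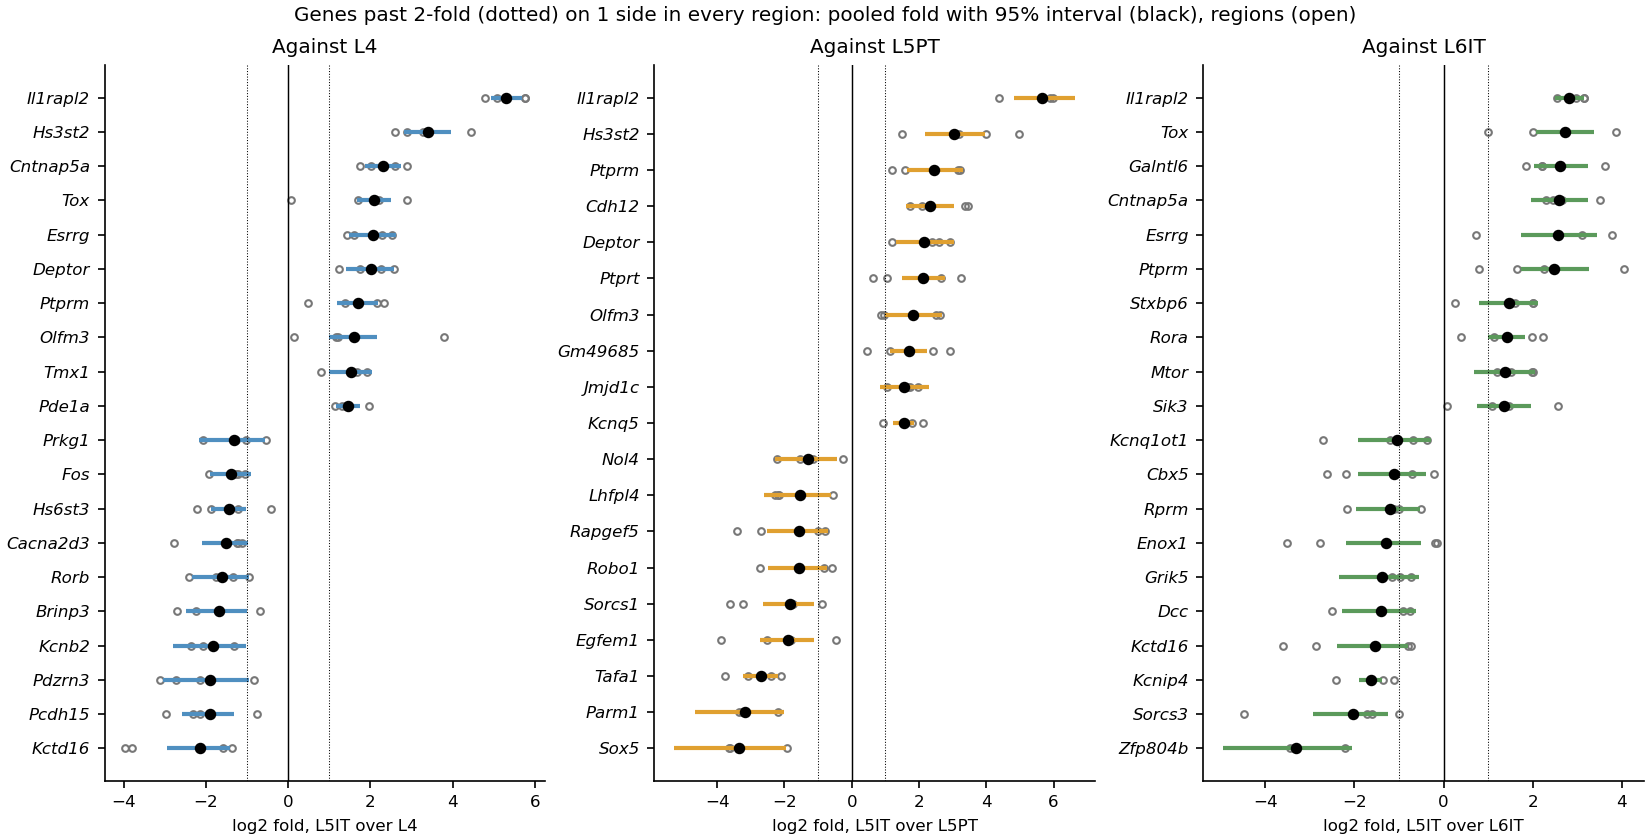
Log2 folds of L5IT over L4, L5PT and L6IT for up to 10 called genes at each end; black points are pooled folds, colored bars 95% intervals for counting error, open circles the 4 V1 regions (a region with no UMI on one side is not drawn), and dotted lines mark 2-fold. Il1rapl2 lies at the upper end of each panel, with log2 folds of 5.30, 5.66 and 2.82.

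Against L5PT, the neighbor at the same depth, 28 of 2319 tested genes were called higher in L5IT (1.21%) and 24 lower (1.03%), with a median log2 fold of 0.02 over all tested genes. Il1rapl2 was 50.7-fold higher (28.5 to 99.4), Hs3st2 8.17-fold (4.53 to 15.6), Ptprm 5.46-fold, Deptor 4.47-fold (2.50 to 8.24), Olfm3 3.54-fold and Cntnap5a 2.69-fold. The cadherin gene Cdh12 stood at 3.19, 1.83, 2.67 and 2.61 in L5IT and at 0.970, 0.168, 0.261 and 0.614 in L5PT, 4.99-fold higher (3.07 to 8.29). Gm49685, a long noncoding RNA that overlaps Cdh12 on the same strand, was 3.22-fold higher, and reads of these cannot be separated here. Cdh12 was at 2.67 in L4 and 1.43 in L6IT. The phosphatase gene Ptprt was 4.36-fold, Jmjd1c, of the histone demethylase family, 2.97-fold, and the guidance ligand Efna5 2.66-fold higher (1.69 to 4.20). Tox and Esrrg were not called against L5PT, at 2.27 and 1.16 there.

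Of 18 potassium channel genes tested against L5PT, 3 were called higher in L5IT, beside 1.21% of all tested genes. The median log2 fold over the 18 was 0.08 beside 0.02 over all genes. Kcnq5 was at 11.6, 7.06, 8.60 and 7.62 in the L5IT regions and 4.02, 3.70, 2.00 and 2.19 in the L5PT regions, 2.91-fold higher (2.33 to 3.63), and every L5IT region was above every L5PT region. Kcnq3, which forms M-type channels together with Kcnq5 and its relatives, was 3.83 and 1.87, 2.05-fold higher, and between 1.36-fold and 2.70-fold higher by region. With cells thinned to 300 UMIs this log2 fold was -0.11. Kcnc2, of the fast Kv3 channels, was 2.10-fold higher (1.26 to 3.47).

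Among the genes lower in L5IT than in L5PT was Sox5, a transcription factor of neurons with subcortical axons, with 4 UMIs in L5IT (0.192) and 1.97 in L5PT, 10.3-fold lower (3.89 to 38.5). Parm1, on the L5PT marker list, was 9.05-fold lower (4.04 to 25.1) on 6 UMIs. Tafa1, a secreted chemokine-like protein, was at 1.501, 0.784, 1.78 and 2.41 in L5IT and at 12.7, 10.6, 9.30 and 10.4 in L5PT, 6.47-fold lower (4.59 to 9.39). Its L5IT level of 1.68 was close to that of L4, 1.91. Egfem1 was 3.68-fold, the sorting receptor gene Sorcs1 3.56-fold, the guidance receptor gene Robo1 2.94-fold, Rapgef5, an exchange factor for Rap, 2.94-fold, and Lhfpl4, which anchors GABA-A receptors, 2.89-fold lower. Cacna2d3 was 2.11-fold, Crym, a thyroid hormone binding protein, 2.15-fold and Nol4 2.45-fold lower. The L5PT marker list summed to 2.97 (2.28 to 3.81) in L5IT and 7.27 (6.54 to 8.06) in L5PT, and L5IT stood no higher than L4 (3.03) or oligodendrocytes (4.52). Bcl11b, also on that list, was 1.20 in L5IT and 1.10 in L5PT and did not separate them. Without region 3 the counts against L5PT were 70 higher and 53 lower, and without region 4 they were 50 and 47.

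Against L6IT, the deeper intratelencephalic cells, 21 of 2306 tested genes were called higher in L5IT (0.911%) and 15 lower (0.65%), with a median log2 fold of 0.03 over all tested genes. Il1rapl2 was 7.07-fold higher (5.64 to 8.91). Tox was 6.57-fold, Galntl6, of the family that starts O-linked glycans, 6.17-fold (4.11 to 9.40), Cntnap5a 5.99-fold, Esrrg 5.92-fold and Ptprm 5.58-fold higher. Hs3st2, at 1.21 in L6IT, was 2.05-fold higher (1.42 to 2.96) and Olfm3 2.28-fold. Galntl6 was 3.59 in L5IT and 2.93 in L4, so it was shared with L4. Deptor was 7.82-fold higher (4.12 to 15.7) but was not among the tested genes, because its mean level over both subclasses was under 1.

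Rora, Mtor, Sik3, Jmjd1c and Stxbp6 were also called higher than in L6IT. Rora, a nuclear receptor, was 7.88, 2.61, 3.41 and 3.41 in L5IT and 2.00, 1.98, 1.55 and 0.726 in L6IT, 2.67-fold higher (1.99 to 3.56), and every L5IT region was above every L6IT region. Mtor was 2.60-fold higher (1.61 to 4.18), the salt-inducible kinase gene Sik3 2.57-fold and Jmjd1c 2.42-fold. Stxbp6, which binds the vesicle fusion machinery, was 2.75-fold higher (1.73 to 4.37), but its log2 fold was -0.72 with cells thinned to 300 UMIs.

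Lower than in L6IT were Zfp804b, a zinc finger protein, 9.86-fold (4.13 to 30.8) on 5 UMIs, the sorting receptor gene Sorcs3, 4.06-fold, and Kcnip4, a partner of A-type potassium channels, 3.09-fold (2.59 to 3.71). Kcnip4 had 137 UMIs in L5IT, with 8.82, 4.44, 6.38 and 6.02 by region, against 22.5, 23.7, 20.1 and 12.9 in L6IT, and the regions did not overlap. It was 9.88 in L4 and 12.3 in L5PT, so L5IT was the lowest of the 4 in the pooled levels. Kctd16 was 2.92-fold and Dcc 2.65-fold lower than in L6IT. Enox1 was 2.45-fold lower, Rprm, a marker of layer 6 corticothalamic cells, 2.30-fold, and Cbx5, a heterochromatin protein, 2.17-fold. Grik5, a kainate receptor subunit, was 2.60-fold lower and the imprinted noncoding RNA Kcnq1ot1 2.08-fold, but among cells within the depth quartiles of L5IT their log2 folds were 0.37 and 0.24. Without region 3 the counts against L6IT were 47 higher and 33 lower, and without region 1 they were 39 and 35.

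Genes of the mTOR pathway were examined as a list of 16. Against L4, 2 of 4 tested members were called higher (Deptor and Mtor) and 0 lower, with a median log2 fold of 0.70, beside 1.08% of all tested genes called higher and a median of 0.04. Against L5PT it was 1 of 4 (Deptor), with a median of 0.57, beside 1.21% and 0.02 over all tested genes. Mtor was 2.01-fold higher than in L5PT (1.24 to 3.24) without lying on the same side in all regions by the rule for calls. Against L6IT it was 1 of 3 (Mtor), with a median of 0.01, beside 0.911% and 0.03. Counts over so few tested genes say little about the list. Deptor, one of the genes by which the cells are recognized, is itself on the list, and most members were too low to be tested.

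Of the other lists, most held few called genes, and nothing particular to a list is read from 1 or 2 calls. Over all tested genes, 1.08% were called higher and 0.866% lower against L4, 1.21 and 1.03% against L5PT, and 0.911 and 0.65% against L6IT. Of 19 tested layer transcription factors against L4, Tox was called higher and Rorb lower, of 17 against L5PT only Sox5 was called, lower, and of 17 against L6IT Tox and Rora were called higher. Of 12 axon guidance genes tested against L4, 0 were called higher and 2 lower, and Dcc was lower against L6IT as well. Of 8 ionotropic glutamate receptor genes tested against L4 and 8 against L5PT, 0 were called, and of 9 against L6IT Grik5 was. GABA-A receptor subunits, metabotropic glutamate receptors, SNARE and vesicle genes, cytoskeletal genes, sodium-potassium pump genes, glycolytic enzymes, mitochondrially encoded genes, monoamine and acetylcholine receptors, and glucocorticoid genes had 0 called members in all 3 comparisons. Of 22 calcium and calmodulin genes tested against L4, 1 was called higher (Pcp4) and 1 lower (Camk4), with 0 of 19 against L5PT and 0 of 21 against L6IT. Of 9 cadherins and protocadherins against L4, Pcdh15 was called lower, and of 6 against L5PT, Cdh12 was called higher. Cacna2d3 was the called member, lower, of 13 sodium and calcium channel genes against L4 and of 11 against L5PT. Nrg1 was the called member of 2 neuropeptide and related genes tested against L4. Of 19 potassium channel genes against L4, Kcnq5 was higher and Kcnb2 lower, and of 18 against L6IT, Kcnip4 was lower. The neurofilament and cytoskeleton list summed to 86.8 in L5IT, 76.5 in L4, 90.1 in L5PT and 78.8 in L6IT, and the vesicle list to 128, 122, 116 and 120.

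Called genes were long. The median span on the chromosome was 128 kb for genes higher than in L4 and 351 kb for those lower, beside 36.1 kb for all tested genes. Against L5PT it was 280 and 253 kb, beside 36.6 kb, and against L6IT 222 and 224 kb, beside 36.8 kb.

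RNA of other cell types was present in the outlines of L5IT cells, as in all cells of this section. The oligodendrocyte list summed to 23.3 in L5IT (17.2 to 31.1 by region), 18.6 in L4, 19.97 in L5PT and 24.2 in L6IT, beside 79.6 in oligodendrocytes. None of its 6 genes was at 0 in L5IT. The sum was 16.7 in L2/3 and 29.7 in L6CT, and was therefore higher in deeper neurons. The GABAergic list summed to 9.96 in L5IT (7.06 to 13.6 by region), 8.58 in L4, 7.80 in L5PT and 7.98 in L6IT, beside 19.2 in GABAergic cells. Astrocyte markers summed to 2.59 in L5IT and 9.30 in astrocytes. Microglia markers summed to 1.82 (1.29 to 2.50) in L5IT, with 0.401 to 3.14 by region and 1 of 5 genes at 0, and to 1.16 to 1.44 in the other 3 subclasses. Markers of other glutamatergic subclasses were far below their own cells, with L4 markers at 1.53 against 4.58, L2/3 markers at 1.15 against 4.77 and L6CT markers at 3.35 against 15.5. L5NP markers were at 0.192 against 13.1 and L6b markers at 0.479. The L6IT list, also at 0.192, reached only 0.457 in L6IT cells and 0.482 in oligodendrocytes, and was too low to mark them. The part that RNA from neighboring cells has in the gene differences was not tested.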

How the data were processed

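Stereo-seq was done on 1 mouse and 1 opossum section, and the mouse section was analysed here. The authors processed reads with the Stereo-seq workflow SAW, aligned them to GRCm39, the build also given in the submitters' processing notes, removed genes found in few cells, kept cells with at least 50 genes and 100 UMIs, and assigned labels by nearest-neighbor classification. They deposited UMI counts per gene and segmented cell, not normalized, with positions, V1 regions and labels. Genes carry their GENCODE names, or the deposited symbol where GENCODE has none. Of 61317 features, 61249 are in the GENCODE annotation, which also gave coordinates, and 21792 have another symbol there than the deposited one. Bcl11b, for example, was deposited as Rit1, Tafa1 as Fam19a1 and Gm49685 as AC124561.1.

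From these counts and labels, levels, depths and folds were computed with Python 3.11.15, numpy 2.4.6, scipy 1.17.1 and pandas 2.3.3, and plots were drawn with matplotlib 3.10.9. Positions were divided by 2 to give µm. Depth runs along 1 side of the smallest rectangle around each V1 region, the side on which L2/3 and L6CT cells lie farthest apart on average. It is turned so that L2/3 is uppermost and L6CT lowest. Levels have exact Poisson, shares exact Clopper-Pearson and folds exact conditional binomial intervals at 95%. A subclass with no UMI was set at a floor of 3 counts for its fold. The computation of folds was tested on simulated data. No doublet caller was run. With 1 animal no test was possible. The members, marker lists and gene lists were chosen with earlier results of these data known. Named are the markers, the 10 genes at each end of each comparison, and of 33 lists the members past 2-fold. A result that this rule names is not reported here. Alternatives were a stricter filter, the first 2 labelling rounds, each region left out, unscaled depth, any class label, thinning to 300 UMIs, means over cells, cells within the depth quartiles of L5IT, other minimum levels, and, chosen after seeing the data, cells with the L5IT type label.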

Additional observations from a re-analysis of the deposited data

How the results depend on the processing

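No paired analysis was possible because the study has 1 mouse sample and no replicate numbers. The median depth of L5IT cells was 416 to 444 µm under every alternative except unscaled depth, which gave 390 µm. Deptor levels ran from 1.26 to 2.08. Of 924 log2 folds of named genes over alternatives, 863 moved by less than their counting interval, 57 moved further and 4 reversed. The reversed ones were Kcnq3 over L5PT (-0.11) and Stxbp6 over L6IT (-0.72) with cells thinned to 300 UMIs, and Grik5 (0.37) and Kcnq1ot1 (0.24) over L6IT within the depth quartiles of L5IT. The cause was not tested.

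Counts of called genes moved more than single folds, and they are given as higher then lower, beside 25 and 20 against L4, 28 and 24 against L5PT, and 21 and 15 against L6IT. Thinning gave 74 and 60, 83 and 102, and 64 and 70, of which only 10 and 12, 8 and 7, and 5 and 5 were among the genes first called. Cells within the depth quartiles gave 46 and 35, 47 and 38, and 78 and 28, of which 10 and 6, 16 and 14, and 7 and 1 were. The larger part of the calls was thus lost in each comparison under thinning and, except against L5PT, within the quartiles. A minimum level of 2 gave 6 and 7, 7 and 5, and 4 and 1, and no minimum gave 154 and 572, 197 and 444, and 182 and 431. Rounds 1 and 2 alone gave 30 and 37, 42 and 39, and 31 and 26. Means over cells gave 23 and 23, 37 and 31, and 32 and 29. Without 1 region the calls need 3 regions only. Region 1 left out gave 26 and 32, 42 and 38, and 39 and 35, region 2 gave 27 and 24, 49 and 39, and 40 and 21, region 3 gave 53 and 34, 70 and 53, and 47 and 33, and region 4 gave 38 and 35, 50 and 47, and 45 and 30. The L5IT type label, an alternative chosen after seeing the data, gave 31 and 27, 39 and 38, and 30 and 20. Of the tested genes, 86 to 97 had fewer than 20 UMIs in L5IT cells.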
